A study of Mus musculus with 2 samples.

Results

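The gasdermin genes Gsdmc, Gsdmc2, Gsdmc3, Gsdmc4 and Gsdmd, the sensor gene Nlrp6 and the protease gene Casp1 were followed through the intestinal epithelium. They are 7 of the 32285 genes listed for both libraries, were matched by gene symbol, and were selected on their measured levels by cell type in these same data, so their levels are given as a description with no test. In WT epithelial cells 6 of the 7 had any unique molecular identifier (UMI, a tag that marks 1 captured mRNA molecule), and in MG53-TG all 7 did. Single-cell RNA-seq was made from 1 WT library and 1 MG53-TG library. MG53-TG mice overexpress MG53 (gene Trim72, a membrane repair protein of muscle) throughout the body, and WT mice were their littermates, as the study describes. Both groups received 2.5% dextran sulfate sodium (DSS), which injures the gut lining, and cells were taken on day 7. The labels name the tissue as intestine and the sort as live (7-AAD-) EpCAM+ cells, but not the promoter of the transgene, the strain or the age of the mice. The study counts several mice in each group of this experiment, without saying how they were shared out to the 1 library of each. Neither group has a replicate library, so genotype and library cannot be told apart, and every interval below is a 95% interval that covers counting error only.

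Gasdermins are proteins whose amino-terminal part, once a protease cuts it free, forms pores in cell membranes, and large numbers of such pores kill the cell by pyroptosis. In an inflammasome a sensor such as NLRP6 recruits the adaptor ASC (gene Pycard) and caspase-1, which cuts gasdermin D and the precursor of interleukin-18. In the gut, NLRP6 is known as a sensor of the enterocyte and goblet cell lineages, and the mouse Gsdmc genes are known for their expression in intestinal epithelium and for responding to type 2 cytokines.

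The Gsdmc genes lie side by side on the minus strand of chromosome 15 (build GRCm38, GENCODE M21), Gsdmc at 63775968 to 63808759, Gsdmc2 at 63824346 to 63845177, Gsdmc3 at 63857724 to 63878558 and Gsdmc4 at 63891264 to 63912297. Gsdmd lies farther along the same chromosome, on the plus strand at 75862327 to 75867408. Nlrp6 is on chromosome 7, plus strand, at 140920902 to 140929192, and Casp1 on chromosome 9, plus strand, at 5298517 to 5307265. No other annotated gene overlaps any of the 7. The longest transcripts of Gsdmc2 and Gsdmc3 were identical at 97.3% of 2008 aligned bases, and those of Gsdmc4 at 94.0% of 1845 bases with Gsdmc2 and 93.8% of 1986 bases with Gsdmc3. Within the last 500 bases, from which a 3′ kit reads, 370 to 484 bases aligned in the 3 pairs. Of these, 94.6% to 96.5% were identical. Over the whole transcripts, each pair shared an unbroken run of 171 to 317 bases. How reads that match several genes were counted is not given in the sources used here, so the split of UMIs among Gsdmc2, Gsdmc3 and Gsdmc4 is uncertain and their sum is the firmer value.

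The sequence of the 250 bases before the transcription start was held by the RefSeq promoter table (build GRCm38.p6) for 3 of the 7 genes. It is shown because the results below differ among them. Gsdmc3 (chr15:63878559-63878808, minus strand) belongs to the group with high levels in early absorptive and some ileal cells. Nlrp6 (chr7:140920652-140920901, plus strand) was high in stem-like and all absorptive types, and Casp1 (chr9:5298267-5298516, plus strand) was widely expressed. Each run is written 5′ to 3′ on the strand of the gene.
Gsdmc3: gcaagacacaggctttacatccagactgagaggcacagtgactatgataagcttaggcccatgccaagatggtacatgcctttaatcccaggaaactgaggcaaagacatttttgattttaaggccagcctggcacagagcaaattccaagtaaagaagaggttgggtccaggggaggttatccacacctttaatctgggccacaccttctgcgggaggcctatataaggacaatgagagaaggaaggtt
Nlrp6: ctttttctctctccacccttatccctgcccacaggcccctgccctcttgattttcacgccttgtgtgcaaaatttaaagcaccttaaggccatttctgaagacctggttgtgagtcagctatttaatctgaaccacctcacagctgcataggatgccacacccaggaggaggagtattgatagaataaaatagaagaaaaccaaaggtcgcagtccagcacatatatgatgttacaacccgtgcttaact
Casp1: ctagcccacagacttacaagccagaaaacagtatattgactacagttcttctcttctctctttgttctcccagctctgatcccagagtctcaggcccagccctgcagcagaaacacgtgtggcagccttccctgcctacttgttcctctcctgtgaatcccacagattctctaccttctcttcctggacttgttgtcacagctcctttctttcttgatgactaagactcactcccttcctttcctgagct
A TATA box, a STAT6 motif and an HNF4 motif were searched on both strands and would stand in capitals. The TATA box (TATAAA) was in 12.4% of the 32851 promoters of this length, the STAT6 motif (TTCNNNNGAA, the same on both strands) in 5.85% and an HNF4 motif (CAAAGTCCA) in 0.384%. None of these exact letters was found in the 3 windows. Variants of the motifs were not searched, so their absence is not shown.

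The filters left 6963 WT and 4941 MG53-TG cells, of which 6119 and 4606 were epithelial, with medians of 15666 and 18654.5 UMIs per cell. A total of 8 barcodes were kept in both libraries. Clusters, made without the members and their pathway genes, gave 10 marker-defined types with at least 50 cells in each library, and T cell-like cells (798 WT, 317 MG53-TG) were among them in spite of the sort. Trim72 checked the labels, with 63 UMIs (0.594 CPM, UMIs of the gene per 1000000 UMIs) in the WT epithelium and 4569 (50.8 CPM) in that of MG53-TG. Of the epithelial cells, early absorptive-like cells made up 19.9% for WT and 10.99% for MG53-TG, ileal enterocyte-like cells 7.26% and 3.52%, stem-like cells 13.6% and 9.21%, and goblet-like cells 28.1% and 41.6%. The early absorptive-like share depended on the clustering. It was 24.5% and 12.8% where cells were typed one by one, and 5.95% and 3.07% with a UMI minimum of 500. With each library clustered alone it was 9.08% for WT, while no MG53-TG cluster took that name and 399 MG53-TG cells stayed unnamed.

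Gsdmc2, Gsdmc3 and Gsdmc4 shared 1 pattern. They were highest in ileal enterocyte-like cells, next in early absorptive-like cells, and near 0 at the villus tip end of the absorptive lineage, whereas Gsdmd was low in the crypt and high in mature enterocytes. Gsdmc, the fourth gene of the cluster, was hardly detected. It had 0 UMIs in WT epithelium, which allows a level of up to 0.0283 CPM (3 counts in the library's epithelial total), and 1 UMI in MG53-TG. Within the last 500 bases it was identical with Gsdmc2 to Gsdmc4 at 94.2% to 96.4% of aligned bases. The doubt about reads that match several genes therefore covers it too.

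Gsdmc4 was at 78.5 CPM for WT and 82.0 CPM for MG53-TG early absorptive-like cells. This type joined a cluster with all 7 markers of its list (733 WT and 306 MG53-TG cells, Gsdmc4 at 93.1 and 103 CPM) and one with 3 of the 7 and 4 cycling markers, led by cell cycle genes such as Mcm3 (485 and 200 cells, 56.5 and 50.2 CPM). In stem-like cells Gsdmc4 was at 23.3 and 24.0 CPM. In ileal enterocyte-like cells, which carry the bile acid transport genes, it was at 165 CPM (interval 153 to 178) for WT and 314 CPM (290 to 340) for MG53-TG. In enterocyte-like cells the level was only 6.88 CPM for WT and 11.5 CPM for MG53-TG. With these clusters the libraries lay close together in the stem-like and early absorptive-like types and apart, with intervals that did not overlap, in both enterocyte types. The ileal difference turned direction where cells were typed one by one (log2 ratio of MG53-TG over WT -0.20), and with a mitochondrial limit of 10% the enterocyte-like one was at 0.31, under 1.5-fold. In every secretory type Gsdmc4 was at 11.02 CPM or below in both libraries, beside 0.415 and 0.860 CPM in T cell-like cells, which should lack it.

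Gsdmc2 ran in the same order. It was at 49.2 CPM for WT and 98.0 CPM for MG53-TG ileal enterocyte-like cells. In early absorptive-like cells it was at 27.3 and 26.2 CPM and in stem-like cells at 10.3 and 9.13 CPM. Gsdmc3 was at 13.3 and 24.9 CPM, 7.61 and 9.88 CPM, and 1.99 and 2.72 CPM in these 3 types, WT first. For Gsdmc2 and Gsdmc4 the first 4 places of the order were ileal enterocyte-like, early absorptive-like, stem-like and enterocyte-like cells, and no neighbouring pair among them had overlapping intervals in both libraries. For Gsdmc3 the order was the same. Below these places, the intervals of the secretory types overlapped for most neighbours.

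**Figure D1:**
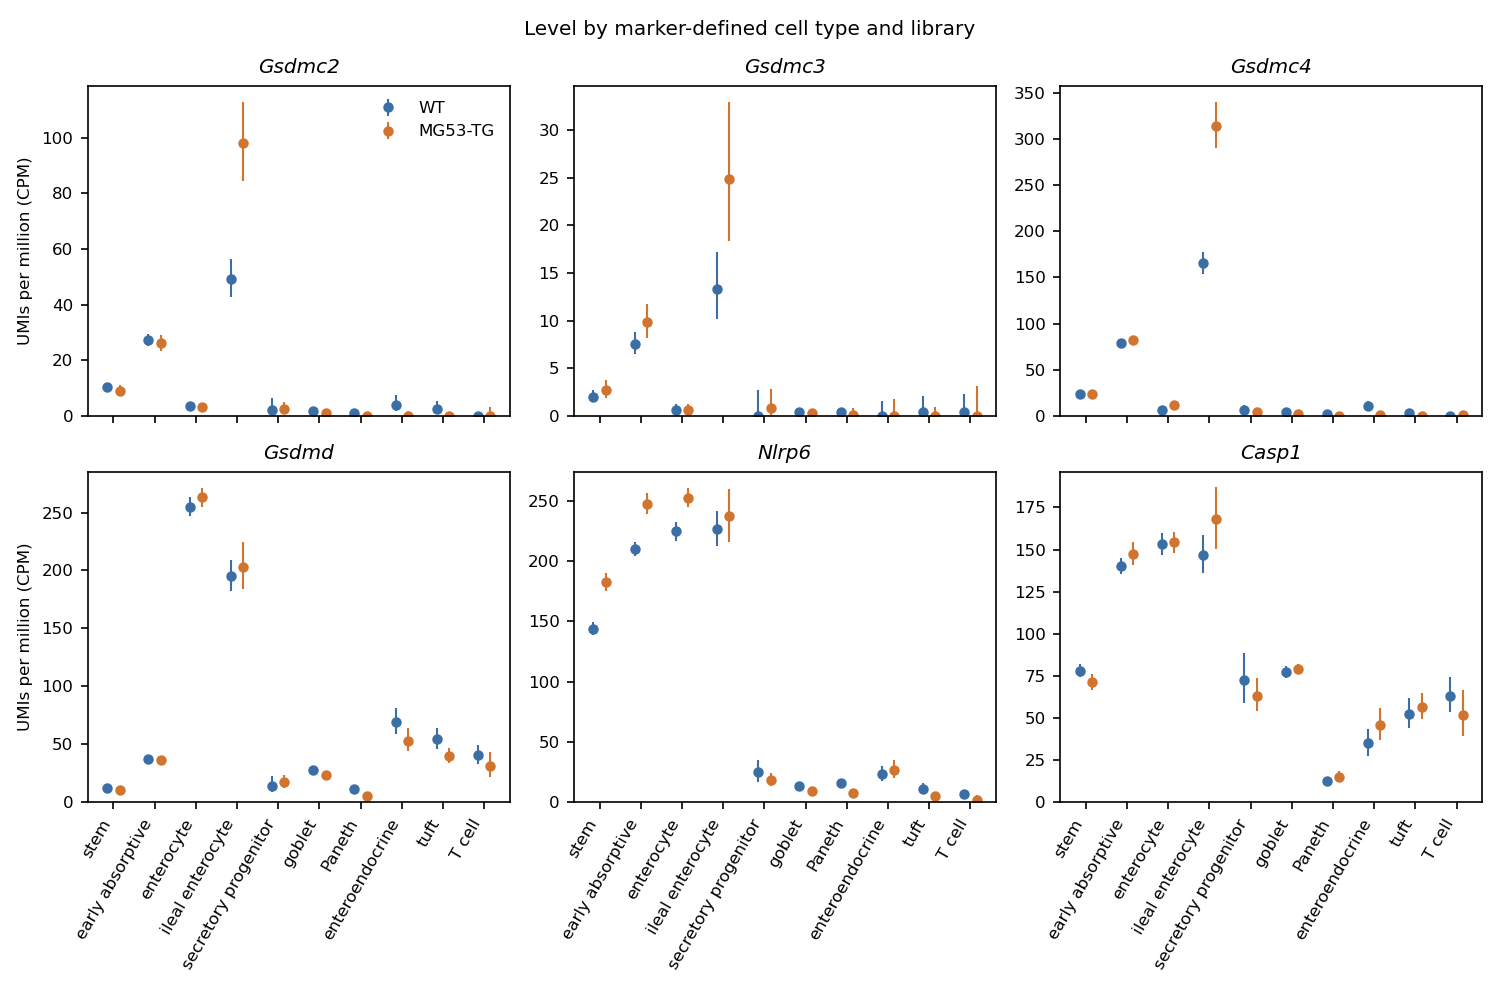
Level (CPM, linear axis from 0) of 6 genes in 10 marker-defined cell types, WT in blue and MG53-TG in orange, 1 library each; bars are exact 95% Poisson intervals for counting error only. The 3 Gsdmc genes peak in ileal enterocyte-like cells, where Gsdmc4 is at 165 CPM for WT and 314 CPM for MG53-TG, Gsdmd peaks in enterocyte-like cells, Nlrp6 is above 140 CPM in stem-like and absorptive types alone, and Casp1 is spread over most types.

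Within the ileal enterocyte-like type, the level differed by cluster. A cluster led by Fabp6, the ileal bile acid binding protein (203 WT and 64 MG53-TG cells), held Gsdmc4 at 218 and 428 CPM and Gsdmc2 at 64.3 and 134 CPM. The other cluster (241 WT and 98 MG53-TG cells, with a median of 3846 UMIs) was led by Saa1 and Slc10a2, the ileal bile acid transporter, and had 3 WT UMIs and 1 MG53-TG UMI of the 3 genes together. Gsdmd was the other way round in the same cells, at 108 and 110 CPM in the Fabp6 cluster and 468 and 458 CPM in the Slc10a2 cluster. A like split was seen in the stem-like type, where the cluster with 7 cycling markers had Gsdmc4 at 30.2 and 31.1 CPM. The cluster led by Olfm4 had 9.82 and 10.4 CPM. It met none of the cycling markers, but Mcm3, a cell cycle gene, was among its leading genes.

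Of the 8026 UMIs assigned to the 3 Gsdmc genes in the epithelium of both libraries, Gsdmc4 took 69.2%, Gsdmc2 24.1% and Gsdmc3 6.70%. Gsdmc4 took 68.8% for WT and 69.8% for MG53-TG, and 69.2% and 69.5% within early absorptive-like cells. In the early absorptive-like type 74.8% of WT cells with a Gsdmc2 UMI also had one of Gsdmc4, and in MG53-TG 76.2% did. The split was not the same in every type. In enterocyte-like cells Gsdmc4 took 60.9% (52.8% to 68.6%) for WT and 75.4% (69.3% to 80.9%) for MG53-TG, and over both libraries its share was 62.5% (56.6% to 68.1%) in goblet-like and 72.2% (70.1% to 74.3%) in ileal enterocyte-like cells. Seen from the Gsdmc4 cells of the early absorptive-like type, the shares that also had Gsdmc2 were 48.6% and 49.7%.

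Gsdmd, the gene for the gasdermin that caspase-1 cuts, was at 255 CPM (247 to 264) for WT and 263 CPM (255 to 272) for MG53-TG enterocyte-like cells. It was at 195 and 203 CPM in ileal enterocyte-like cells and at 37.3 and 36.0 CPM in early absorptive-like cells, where its cycling cluster had 12.3 and 14.5 CPM and the other 54.0 and 50.03 CPM. In stem-like cells it was at 12.5 and 10.8 CPM. The enterocyte levels were thus far above those of the crypt in both libraries, and the 2 libraries overlapped within each of these types. Outside the absorptive lineage it was higher in enteroendocrine-like cells (69.2 and 53.1 CPM) than in goblet-like cells (27.2 and 23.3 CPM). Most of the enteroendocrine level came from the cluster led by Tph1 and Tac1, genes of serotonin-producing enterochromaffin cells, at 129 and 135 CPM. T cell-like cells were at 40.3 and 31.0 CPM, so the goblet level was below that of the T cells.

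Nlrp6 was high in stem-like cells and in all absorptive types. It was at 144 CPM (139 to 149) for WT and 183 CPM (175 to 190) for MG53-TG stem-like cells. In early absorptive-like cells it was at 210 and 248 CPM, in enterocyte-like cells at 225 and 253 CPM, and in ileal enterocyte-like cells at 227 and 237 CPM. The MG53-TG level was above the WT interval in the first 3 of these types. The 3 more mature types overlapped in at least 1 library, so their order is not resolved, while stem-like cells were below them. Nlrp6 was far lower in goblet-like (13.4 and 8.86 CPM), Paneth-like (15.8 and 7.58 CPM), tuft-like (10.7 and 4.72 CPM) and T cell-like cells (6.23 and 1.72 CPM). With every cell thinned to the lowest depth kept, 25.8% of WT and 29.4% of MG53-TG early absorptive-like cells had an Nlrp6 UMI, against 1.69% and 0.782% of goblet-like cells and 0.877% and 0.315% of T cell-like cells. Before thinning, the median depths of T cell-like cells were 2692 and 3420 UMIs, against 18623.5 and 23591 UMIs in early absorptive-like cells.

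Casp1 was the most widely expressed member. It was at 153 and 154 CPM in enterocyte-like cells, 140 and 148 CPM in early absorptive-like cells and 147 and 168 CPM in ileal enterocyte-like cells. Goblet-like cells had 77.4 and 78.9 CPM and stem-like cells 78.1 and 71.1 CPM. T cell-like cells, which use caspase-1 themselves, had 63.1 and 51.6 CPM. Paneth-like cells were lowest, at 12.5 and 14.9 CPM. Casp1 was therefore present in both the absorptive and the goblet lineage, whereas Nlrp6 was largely limited to stem-like and absorptive cells in both libraries.

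A score from 8 crypt and 8 villus tip genes, none of them a member, ordered the 5427 stem-like, early absorptive-like and enterocyte-like cells, ileal ones included, into 5 ranges of nearly equal size. The ranges are cuts of a continuous score and not cell types. The Gsdmc2 to Gsdmc4 sum went from 35.6 CPM in the crypt range through 105, 140 and 29.8 CPM to 3.20 CPM at the tip in WT. In MG53-TG it went from 24.2 through 119, 162 and 32.3 CPM to 1.34 CPM. The sum was thus highest in the third range in both libraries, although with the score taken from the tip list alone (WT) or from thinned cells (MG53-TG) each of the 3 genes was highest in the second range. Gsdmd was higher at each step, from 7.52 through 20.5, 78.6 and 194 to 385 CPM in WT. In MG53-TG it was at 8.61, 16.7, 78.7, 215 and 381 CPM. Gsdmd was highest in the fifth range under both other scores too, and it reached its maximum where the Gsdmc sum had all but gone.

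Nlrp6 and Casp1 had broad maxima between these extremes. Nlrp6 was at 137, 169, 258, 258 and 154 CPM in WT and at 172, 199, 299, 286 and 174 CPM in MG53-TG. The MG53-TG level was the higher of the 2 in all 5 ranges. Casp1 was at 74.5, 108, 173, 175 and 99.2 CPM in WT and 65.1, 110, 183, 169 and 116 CPM in MG53-TG, and neither library was above the other throughout. The median depth of the ranges went from 22960 UMIs in the first to 5655 in the fifth, and the part of depth in these profiles was addressed only by the score from thinned cells.

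**Figure D2:**
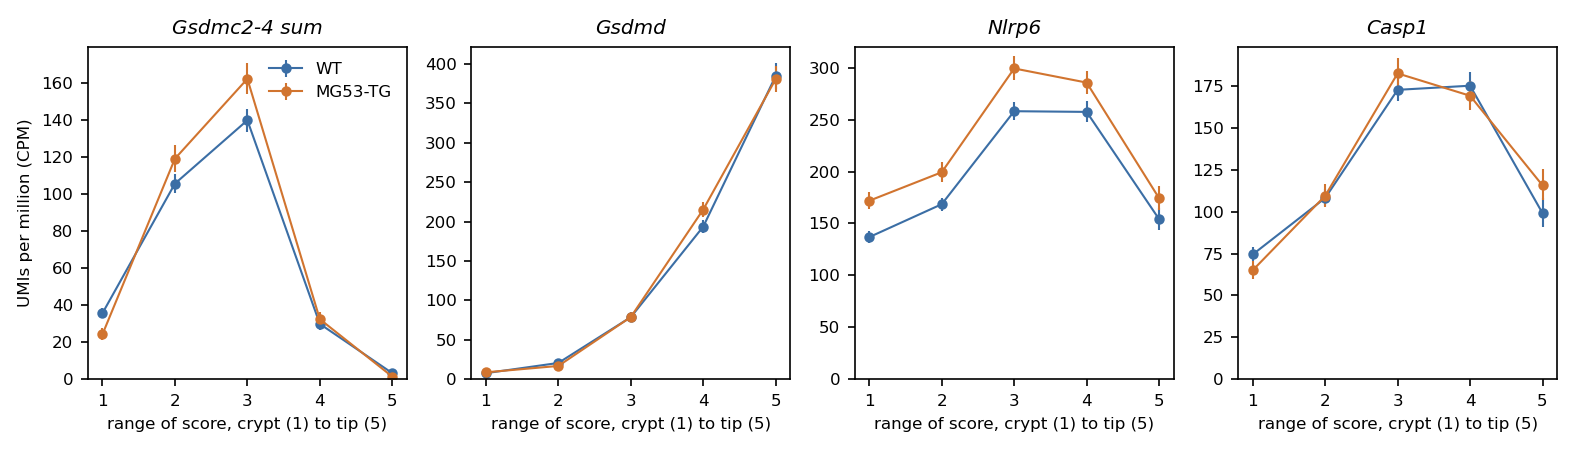
Level (CPM, linear axis from 0) of the Gsdmc2 to Gsdmc4 sum, Gsdmd, Nlrp6 and Casp1 in 5 ranges of a crypt to villus tip score, WT in blue and MG53-TG in orange; bars are exact 95% Poisson intervals. The Gsdmc sum peaks in the third range (140 and 162 CPM), Gsdmd in the fifth (385 and 381 CPM), and the Nlrp6 line of MG53-TG runs above that of WT.

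In the epithelium as a whole, no member differed between libraries by 1.5-fold. Gsdmc4 was at 31.5 CPM for WT and 24.6 CPM for MG53-TG, a log2 ratio of MG53-TG over WT of -0.36 (interval -0.43 to -0.28). Gsdmc2 was at 11.4 and 8.07 CPM (log2 ratio -0.50, -0.63 to -0.37) and Gsdmc3 at 2.89 and 2.58 CPM (-0.16, -0.41 to 0.09). Gsdmd was at 62.6 and 67.2 CPM (0.10), Nlrp6 at 119 and 112 CPM (-0.09) and Casp1 at 94.8 and 95.2 CPM (0.01). The Gsdmc2 ratio lay close to the limit of 1.5-fold and passed it with a mitochondrial limit of 50% (-0.59), scaling by the median of ratios (-0.59), thinned cells (-0.63) and the mean of single-cell CPM (-0.69), and Gsdmc3 passed it with thinned cells (-0.66). Weighting the cell types gave passes in the other direction, as higher in MG53-TG, for Gsdmc3 with every type weighted equally (0.67) and for Gsdmc2 (0.59), Gsdmc3 (0.69) and Gsdmc4 (0.66) with stem-like and absorptive types alone weighted equally. Of the 6 members with at least 30 UMIs, 0 were higher and 0 lower past 1.5-fold, and over all 14656 genes 6.8% were higher and 3.0% lower. The median log2 ratio was -0.13 over the members and 0.09 over all genes. The level of a whole epithelium mixes cell number with RNA per cell.

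In early absorptive-like and stem-like cells the libraries lay closer than in the whole epithelium, and in ileal enterocyte-like cells, which held 20.4% of the Gsdmc2 to Gsdmc4 UMIs for WT and 26.6% for MG53-TG, they lay farther apart and the other way (0.94). Early absorptive-like cells supplied 56.2% of the Gsdmc2 to Gsdmc4 UMIs for WT and 47.5% for MG53-TG, and there the sum was at 113 and 118 CPM (log2 ratio 0.06, -0.03 to 0.15). In stem-like cells it was at 35.5 and 35.9 CPM (0.01, -0.16 to 0.19). The clusters of the early absorptive-like type went opposite ways, the sum being at -0.18 (-0.36 to -0.0056) in the cycling one and 0.15 (0.039 to 0.25) in the other. Cell selection and typing moved the early absorptive-like value in both directions, to -0.15 (-0.28 to -0.027) with a mitochondrial limit of 10% and to 0.47 (0.39 to 0.55) with cells typed one by one. Under the 10% limit Gsdmc2 was at -0.26 there and at -0.81 in stem-like cells. Early absorptive-like cells held 22.7% of all epithelial UMIs for WT and 14.2% for MG53-TG, and goblet-like cells, which had little of the 3 genes, 22.8% and 36.8%. With each type held at its WT share of UMIs in both libraries, the log2 ratio was 0.12 for Gsdmc2, 0.46 for Gsdmc3 and 0.28 for Gsdmc4, so the direction for all 3 turned. These weights rest on the type shares, and so on the clustering, and the levels within types enter them too. For Gsdmc2 the ratio was -0.17 in stem-like, -0.06 in early absorptive-like and -0.29 in enterocyte-like cells. Among the stem-like and absorptive types only its ileal ratio (0.99) was positive. That ratio turned direction where cells were typed one by one. Nlrp6 went from -0.09 in the sum to 0.20 at WT shares. Its log2 ratio was 0.34 (0.26 to 0.42) in stem-like, 0.24 (0.17 to 0.30) in early absorptive-like and 0.17 (0.10 to 0.24) in enterocyte-like cells, none past 1.5-fold. Casp1 stayed at 0.03 and Gsdmd went to -0.03.

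**Figure D3:**
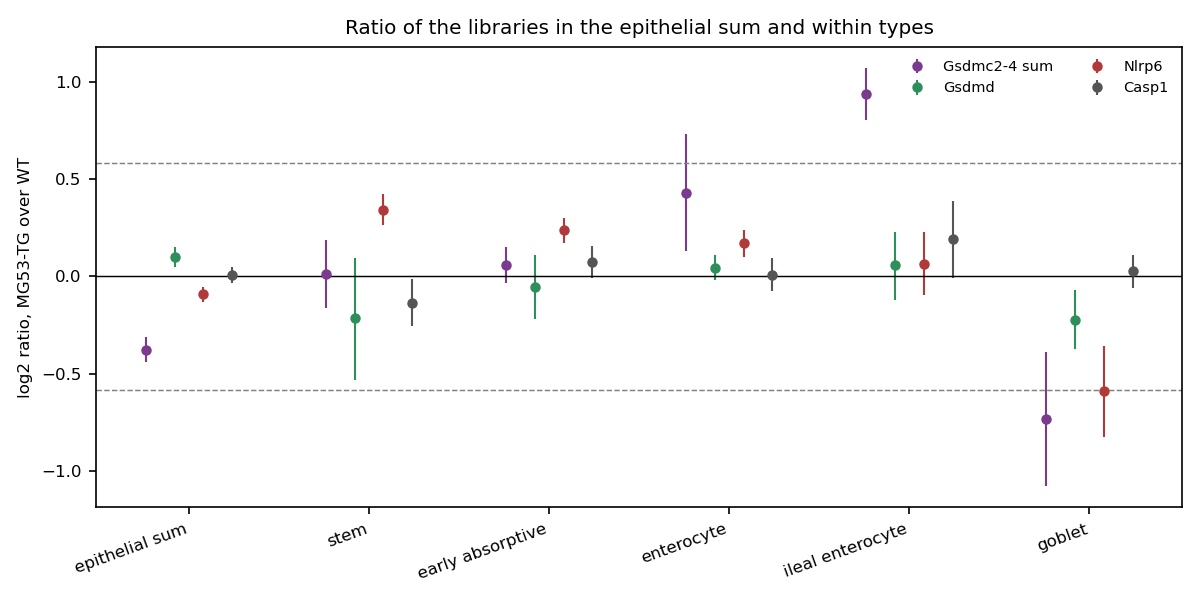
Log2 ratio of MG53-TG over WT for the Gsdmc2 to Gsdmc4 sum, Gsdmd, Nlrp6 and Casp1 in the epithelial sum and within 5 types; bars are exact conditional 95% intervals for counting error, and dashed lines mark 1.5-fold. The Gsdmc sum is at -0.38 in the epithelium, 0.06 in early absorptive-like cells and 0.94 in ileal enterocyte-like cells, and Nlrp6 is below 0 in the epithelium and above 0 in stem-like and early absorptive-like cells.

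In ileal enterocyte-like cells 3 of the 6 members with enough UMIs were higher in MG53-TG past 1.5-fold, where 6.47% of 8552 genes were. These were Gsdmc2 (log2 ratio 0.99, 0.70 to 1.28), Gsdmc3 (0.90, 0.32 to 1.48) and Gsdmc4 (0.93, 0.77 to 1.09), which share a locus and much of their sequence. Gsdmd was at 0.06, Nlrp6 at 0.07 and Casp1 at 0.19 in the same cells. The difference lay in the Fabp6 cluster, where the sum of the 3 genes was 987 UMIs (300 CPM, 281 to 319) in WT and 842 UMIs (595 CPM, 556 to 637) in MG53-TG. The UMIs were concentrated in few cells of both libraries. The 21 WT cells with the highest levels held 48.9% of the cluster's UMIs of these genes, and the 7 highest MG53-TG cells 50.7%. The median cell was at 77.9 CPM for WT and 210 CPM for MG53-TG, and 57.6% of 203 and 79.7% of 64 cells had a UMI, at median depths of 16259 and 20646.5 UMIs. After thinning to equal depth the shares were 27.1% (21.1% to 33.8%) and 26.6% (16.3% to 39.1%). Without the 5% of cells with the highest level in each library the log2 ratio was 0.84 in place of 0.99. The result rested on the clusters: where cells were typed one by one from the marker lists, the ileal enterocyte-like log2 ratios were -0.11 for Gsdmc2, -0.53 for Gsdmc3 and -0.20 for Gsdmc4. In the same type Sprr2a3, a small proline-rich protein gene of the type 2 response list, was at 88.8 CPM for WT and 176 CPM for MG53-TG, whereas Il4ra (43.5 and 33.7 CPM), Il13ra1 (49.7 and 47.7 CPM) and Stat6 (40.3 and 45.1 CPM) of that list differed by less than 1.5-fold.

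**Figure D4:**
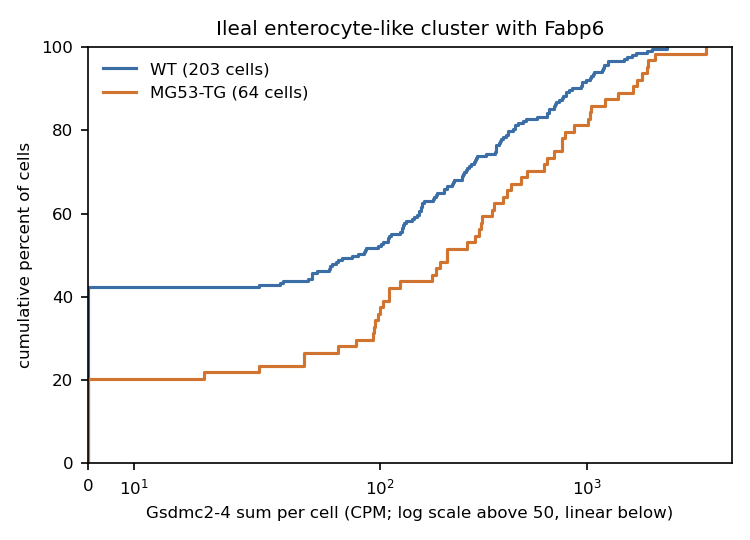
Cumulative percent of cells (vertical axis) by their summed Gsdmc2 to Gsdmc4 level in CPM (horizontal axis, logarithmic above 50 and linear below) in the Fabp6 cluster of the ileal enterocyte-like type, 203 WT cells in blue and 64 MG53-TG cells in orange. The median cell is at 77.9 CPM for WT and 210 CPM for MG53-TG, and cells are not replicates.

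In enterocyte-like cells 1 of the 5 members with enough UMIs, Gsdmc4 (log2 ratio 0.74, 0.37 to 1.12), was higher past 1.5-fold, against 3.67% of 10568 genes, but with a mitochondrial limit of 10% it was at 0.31. Among the secretory types, members were lower past 1.5-fold in goblet-like, Paneth-like and tuft-like cells, at low levels, and in enteroendocrine-like and secretory progenitor-like cells 0 of the 3 with enough UMIs were past it in either direction. Over all genes 4.51% were higher and 6.03% lower in enteroendocrine-like cells, and 7.19% and 3.16% in secretory progenitor-like cells. The sum of Gsdmc2 to Gsdmc4 was 34 UMIs for WT and 3 for MG53-TG in enteroendocrine-like cells (log2 ratio -3.37, -5.72 to -1.70) and 50 and 5 UMIs in Paneth-like cells (-2.27, -3.96 to -0.95), and in both types it reached 30 UMIs only through WT. In goblet-like cells Gsdmc2, Gsdmc4 and Nlrp6, 3 of the 5 with enough UMIs, were lower in MG53-TG past 1.5-fold, where 3.51% of 11934 genes were. A goblet-like cluster led by enterocyte genes such as Tmprss15 and Slc5a12 (93 WT and 74 MG53-TG cells) held Nlrp6 at 68.7 and 51.2 CPM. Without it Nlrp6 was at 9.32 and 6.79 CPM, a log2 ratio of -0.46 and no longer past 1.5-fold, while Gsdmc2 was at -0.72 and Gsdmc4 at -0.61. With a mitochondrial limit of 10% the goblet-like ratio was -0.030 for Gsdmc2 and -0.49 for Nlrp6. The goblet-like clusters were not alike. The Gsdmc2 to Gsdmc4 sum was at -0.25 (-0.65 to 0.16) in the cluster led by Agr2 (101 WT and 105 MG53-TG UMIs). It was at 0.13 in that led by Mptx1 (9 and 20 UMIs). The cluster led by Ido1 had 25 and 0 UMIs, the Tmprss15 cluster 17 and 1, and that led by Ccl9 6 and 4. In Paneth-like cells Gsdmd (145 UMIs for WT, 35 for MG53-TG) and Nlrp6 (211 and 49 UMIs) were lower, where 7.6% of 9666 genes were, and Gsdmc4 had 29 and 3 UMIs, so that it reached the minimum of 30 through WT and is not counted. The Paneth-like type joined a cluster of 239 WT and 93 MG53-TG cells and one of 92 and 99, so its mix differed between libraries. In these clusters Gsdmd was at -1.10 and -0.79 (-2.05 to 0.40 in the latter), and Nlrp6 at -0.69 and -2.80. In tuft-like cells Nlrp6, 1 of the 3 with enough UMIs, was lower, against 3.34% of 9352 genes. These levels were low beside those of the absorptive types. WT barcodes with 10 to 99 UMIs, taken as empty droplets, held Gsdmd at 143 CPM, Nlrp6 at 93.4 CPM, Casp1 at 69.4 CPM and Gsdmc4 at 12.8 CPM. The lowest MG53-TG barcode had 500 UMIs, so the same level could not be taken there, and the part of free RNA in these differences was not tested.

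The pathway around the members was described with 47 listed genes, of which 37 had at least 30 UMIs. In MG53-TG epithelium 4 of the 37 were higher past 1.5-fold and 0 lower, beside the 6.8% and 3.0% of all genes, and the median log2 ratio was 0.19. The 4 were Trim72 itself (log2 ratio 6.42), Gsdma2 (0.87), Sprr2a3 (0.79) and Nlrp1b (0.73). Pycard, the adaptor, was at 1062 CPM for WT and 872 CPM for MG53-TG epithelium (log2 ratio -0.28), and within early absorptive-like cells at 2090 and 2224 CPM. Il18, the cytokine that caspase-1 activates, was at 81.3 and 97.1 CPM (0.26), with its highest level in enterocyte-like cells (316 and 373 CPM). Il1b had 2 UMIs for WT and 0 for MG53-TG epithelium, so this cytokine was hardly detected.

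Among the other sensors, the Naip genes and Nlrc4, which detect bacterial flagellin and secretion needles, were at 25.1 to 51.4 CPM in both libraries, with log2 ratios from -0.13 (Naip1) to 0.37 (Naip5). Nlrc4 was not limited to the absorptive lineage, at 45.1 and 49.0 CPM in goblet-like cells. Naip1 resembled Nlrp6 more, at 106 and 133 CPM in ileal enterocyte-like cells against 13.3 and 13.6 CPM in goblet-like cells. Nlrp9b was at 25.5 and 31.6 CPM in ileal enterocyte-like cells and near 1 CPM in stem-like, early absorptive-like and goblet-like cells. Nlrp3 had 7 and 4 UMIs. Aim2, a DNA sensor, was highest in T cell-like cells.

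The remaining gasdermins differed in where they were detected. Gsdma was at 53.8 and 61.3 CPM in enteroendocrine-like cells and at or below 4.21 CPM in every other type. Gsdma2 was highest in goblet-like cells (15.8 and 19.4 CPM) and was also found in Paneth-like cells (5.08 and 10.7 CPM). Gsdme was spread wider, at 94.6 and 101 CPM in ileal enterocyte-like, 53.3 and 45.4 CPM in enteroendocrine-like and 42.6 and 41.5 CPM in goblet-like cells. Gsdma3 had no UMI in epithelium, and Pjvk 4 for WT and 1 for MG53-TG.

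Across 44 points, each a cluster in 1 library with at least 50 cells, log2(CPM + 1) of the members was correlated with that of 11908 other genes. The points share 2 libraries, so r is a description. Nlrp6 was most like Otc (r = 0.95), a urea cycle enzyme, Ccl25 (0.94), a chemokine of the small intestine, and Slc26a3 (0.94), a chloride exchanger. Gsdmd was most like 2010003K11Rik (0.90), Slc27a4 (0.90), a fatty acid transporter, and Npc1l1 (0.90), the cholesterol uptake protein. Gsdmc4 was most like Fgfbp1 (0.85), Bmp3 (0.83) and Prdx1 (0.82), and Gsdmc2 and Gsdmc3 both had Mesp1 (0.82), 1810065E05Rik and Bmp3 as their nearest genes. Casp1 was most like Psmb10 (0.88), an immunoproteasome subunit, Aamdc (0.88) and S100a10 (0.87). Among the members, Gsdmc2 and Gsdmc4 had r = 0.96, Gsdmc4 and Nlrp6 0.76, and Gsdmd and Gsdmc4 0.17.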

How the data were processed

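The values deposited by the authors were UMI counts per gene and barcode from Cell Ranger, mapped to mm10 per the labels and not scaled. Per the file headers, version 4 made the WT counts and version 6.0.1 those of MG53-TG. There were 2005718 barcodes for WT (158455748 UMIs) and 12361 for MG53-TG (128227881 UMIs, no barcode under 500), so that program version and barcode filtering coincide with genotype. Kept barcodes had 1354 or more UMIs, 200 or more genes and no more than 25% mitochondrial UMIs, while the highest-scoring Scrublet doublets (438 WT, 212 MG53-TG) were removed. Both libraries were clustered together in scanpy 1.11.5 into 25 clusters, which were named from marker lists. Settings were log counts per 10000, 2000 variable genes chosen over both libraries, 30 principal components, 15 neighbours and Leiden resolution 1. The 47 pathway genes were left out of the variable genes. UMIs were summed over cells and given in CPM with exact Poisson intervals, shares with Clopper-Pearson intervals, and log2 ratios with exact conditional ones (95%). These intervals hold counting error alone. No test was made, for want of replicate libraries, and a gene was called past 1.5-fold with at least 30 UMIs in both libraries together. The ratio and interval were tested on simulated data. Pathway genes were named with at least 100 UMIs in epithelium, plus Trim72, and likeness took the 3 genes with the highest Pearson r per member. A few genes outside this rule (Gsdma3, Pjvk, Il1b, Nlrp3) were named for their near absence after their values were seen, and so were the genes that lead a cluster. The members and lists were chosen with earlier results of these data known. Alternatives covered the cell filters, scaling, thinning, type weights and cell typing.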

Additional observations from a re-analysis of the deposited data

Results flagged for a closer look

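The log2 ratio of MG53-TG over WT had opposite signs past 1.5-fold in different cell types for Gsdmc2, Gsdmc4 and the sum of Gsdmc2 to Gsdmc4. For Gsdmc2 it was 0.99 in ileal enterocyte-like and -0.72 in goblet-like cells, for Gsdmc4 0.93 and -0.81, and for the sum 0.94 and -0.73. Gsdmc4 was at 0.74 in enterocyte-like cells and, at lower counts, at -2.22 in Paneth-like cells (29 WT UMIs and 3 MG53-TG UMIs). The sum was at -2.27 in Paneth-like and -3.37 in enteroendocrine-like cells. These Paneth-like and enteroendocrine-like values reached the UMI minimum only through WT, so they are not counted as further cases of opposite sign. The difference between the types was not tested, since each group has 1 library. The goblet-like values rest on 158 WT and 130 MG53-TG UMIs of the 3 genes, and the ileal ones turned direction where cells were typed one by one. In the goblet-like cluster led by Agr2, with 101 and 105 of these UMIs, the sum was at -0.25 (-0.65 to 0.16). In that led by Mptx1 (9 and 20 UMIs) it was at 0.13. With a mitochondrial limit of 10% the goblet-like value of Gsdmc2 was -0.030.

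Nlrp6 was higher for MG53-TG than for WT, with intervals that did not overlap, in the barcodes over the mitochondrial limit (3755 WT, 4402 MG53-TG). Those up to 50% otherwise enter the report only where that limit is set at 50%, and those above it under no setting. In CPM of nuclear UMIs Nlrp6 was at 264 (interval 254 to 274) for WT and 288 (279 to 297) for MG53-TG in all these barcodes. In the epithelial cells kept it was at 127 and 119. Enterocyte-like cells had 225 and 253 CPM of all UMIs. The other members in these barcodes are given under the other observations, and Gsdmd was farther from its level in the cells kept.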

How the results depend on the processing

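No paired analysis was possible because each group has 1 library and the result comes from no test. Log2 ratios of MG53-TG over WT in the epithelial sum stayed within their counting intervals with UMI minimums of 500 and 3000, doublets kept, clustering at resolution 0.5, each library clustered alone and cells typed one by one. Those of the Gsdmc genes moved most with the weight of the cell types, and those of Gsdmd and Casp1 with thinning. With every type weighted equally they were 0.45 for Gsdmc2, 0.67 for Gsdmc3, 0.55 for Gsdmc4, -0.052 for Gsdmd, 0.14 for Nlrp6 and 0.059 for Casp1. With stem-like and absorptive types alone weighted equally, in the same order, they were 0.59, 0.69, 0.66, 0.037, 0.19 and 0.061, and with WT shares of UMIs 0.12, 0.46, 0.28, -0.034 and 0.20 for the first 5 (these 2 weightings were chosen after seeing the data). Cells thinned to the lowest depth kept gave -0.66 for Gsdmc3, -0.48 for Gsdmc4, -0.24 for Gsdmd, -0.24 for Nlrp6 and -0.12 for Casp1. The mean of single-cell CPM gave -0.69 for Gsdmc2, -0.53 for Gsdmc4, -0.17 for Gsdmd, -0.24 for Nlrp6 and -0.055 for Casp1. Scaling by the median of ratios, which shifts all genes by 0.09, gave -0.45 for Gsdmc4, 0.012 for Gsdmd, -0.18 for Nlrp6 and -0.082 for Casp1. A mitochondrial limit of 10% gave -0.25 for Gsdmc4 and -0.070 for Gsdmd, and one of 50% gave -0.49 for Gsdmc4, 0.31 for Gsdmd, -0.012 for Nlrp6 and -0.047 for Casp1. The cause of these moves was not tested, except that the weights change only the mix of types. Without the 5% of cells with the highest level, also chosen after seeing the data, the Gsdmc2 to Gsdmc4 log2 ratio in the Fabp6 cluster was 0.84. With genes under 30 UMIs kept, 2180 genes were higher and 1418 lower past 1.5-fold, in place of 997 and 439, and with the median of ratios 704 and 577. Of 175 log2 ratios within types under an alternative, 154 stayed within their intervals and 11 crossed 1.5-fold. A total of 23 had the opposite sign. Of these, 3 were past 1.5-fold in the report, those of Gsdmc2 (-0.11), Gsdmc3 (-0.53) and Gsdmc4 (-0.20) in ileal enterocyte-like cells typed one by one, and 6 others left their intervals, with Gsdmc3 (-0.19) and Gsdmc4 (-0.11) in early absorptive-like and Gsdmd (0.25) in stem-like cells under the 10% limit among them. Leaving a cluster out of the goblet-like or early absorptive-like type was chosen after seeing the data.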

Other observations

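In the barcodes over the mitochondrial limit, Gsdmd was at 497 (WT) and 507 (MG53-TG) CPM of nuclear UMIs, compared with 66.4 and 71.1 in the epithelial cells kept. The Gsdmc2 to Gsdmc4 sum was at 5.27 and 3.84 there, against 48.6 and 37.3. Casp1 was at 78.4 and 73.7, against 101 and 101.

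Retnlb, a secreted protein of goblet cells from the type 2 response list, was at 374 and 245 CPM (WT and MG53-TG) in goblet-like cells, and at 133 and 176 CPM in Paneth-like cells. Il13ra1, a receptor subunit for interleukin-13, was at 38.3 and 49.6 CPM in epithelium and highest in tuft-like cells. In the Slc10a2 cluster of ileal enterocyte-like cells, Nlrp6 was at 109 CPM for WT and 38.9 CPM for MG53-TG (115 and 20 UMIs), in contrast to 264 and 310 CPM in the Fabp6 cluster.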
